A study of Mus musculus with 48 samples.

Results

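The 10 genes described here encode the fibrillar collagens of the dermis, elastic fibre proteins and their partners: Col1a1, Col1a2, Col3a1, Col5a1, Col5a2, Col6a1, Eln, Fbn1, Lox and Dcn. They were chosen by name, and each is a single row among the 46983 genes of both deposited tables. RNA of whole skin of C57BL/6 mice was sequenced from the chin, ventral and dorsal domains at 6 stages of the hair cycle. These were competent telogen, early, mid and late anagen, catagen and refractory telogen. In the study competent telogen is the first telogen and refractory telogen the early part of the second, after an anagen and a catagen. These 43 libraries form 18 groups, of which 11 hold 2 libraries and 7 hold 3. A separate table holds 7 libraries, 2 of telogen ear skin, 3 of the ear cartilage/muscle complex and 2 of dorsal skin. No treatment or mutation is named for any group and the labels give no ages of the mice. Nothing states that each library came from a different mouse, so that p-values measure the spread between libraries, which may be technical. Levels are in FPKM, fragments per kilobase of transcript relative to all mapped fragments, a unit scaled by length, so that levels of different genes can be set beside each other.

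Type I collagen, the main fibre of the dermis, is a trimer of chains from Col1a1 and Col1a2, and it is assembled together with type III collagen from Col3a1. Type V collagen, from Col5a1 and Col5a2, sits inside these fibrils and regulates how they start and how thick they become, while type VI collagen, for which Col6a1 encodes a chain, forms beaded filaments around cells. Elastic fibres consist of a core of elastin, encoded by Eln, on microfibrils of fibrillin, encoded by Fbn1. Lox encodes lysyl oxidase, which cross-links both collagen and elastin, and Dcn encodes decorin, a small leucine-rich proteoglycan on the surface of collagen fibrils. In skin these proteins are made mainly by dermal fibroblasts. Hair follicles sit within this matrix and pass through growth (anagen), regression (catagen) and rest (telogen), the early part of rest being refractory to signals for growth and the later part competent to respond.

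On the GRCm38 assembly of the mouse genome, as annotated by GENCODE vM21, Col1a1 lies on chromosome 11 from 94936224 to 94953042 and Col1a2 on chromosome 6 from 4504814 to 4541544. Col3a1 and Col5a2 are both on chromosome 1, with Col3a1 on the plus strand from 45311538 to 45349706 and Col5a2 on the minus strand from 45374321 to 45503282, so that their 3′ ends face each other across 24.6 kb. Col5a1 and Fbn1 are both on chromosome 2, from 27886425 to 28039514 and from 125300594 to 125507993. Col6a1 and Dcn are both on chromosome 10, from 76708792 to 76726168 and from 97479609 to 97518143. Eln is on chromosome 5 from 134702593 to 134747323.

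Several libraries stood apart from their labels or from the rest. Krt31, Krt35 and other markers of the hair matrix and shaft, 11 of 12 of which are in the table, summed to 2148 to 2603 FPKM in ventral competent telogen, 2368 to 2511 in chin competent telogen and 2265 to 3873 in chin refractory telogen. In the libraries labelled dorsal competent telogen the sum was 9294 to 9384, in ventral refractory telogen 8376 to 9538 and in dorsal refractory telogen 7437 to 7698, beside 8029 to 16370 in mid anagen, late anagen and catagen. Single markers did not all follow the sum. Krt31 averaged 324.2 FPKM in ventral competent, 1010 in ventral refractory and 929.9 in dorsal refractory telogen. Krt35 averaged 723.1, 375.1 and 362.8 FPKM in the same groups, and Lef1 47.49, 8.24 and 11.11. In chin and dorsal competent telogen Krt35 averaged 824.2 and 895.4 FPKM and Lef1 38.84 and 32.03. In chin, ventral and dorsal mid anagen Krt35 averaged 863.2, 772.9 and 990.7 FPKM and Lef1 37.67, 35.48 and 39.74. By both markers competent telogen of each domain lay near mid anagen. Msx2 averaged 51.03, 73.87 and 65.88 FPKM in chin, ventral and dorsal competent telogen and 79.97 to 100.6 in mid anagen. Ventral early anagen had means of 97.47 FPKM for Krt35, 5.66 for Lef1 and 15.93 for Msx2. The same means were 943.9, 52.75 and 71.28 in chin and 638.3, 40.53 and 53.9 in dorsal early anagen. In chin refractory telogen they were 144.8, 5.903 and 20.83. The libraries labelled dorsal competent telogen also correlated with those labelled chin late anagen at r = 0.981 to 0.983 across genes on the log2 scale, where libraries of 1 group correlated at 0.955 to 0.985 and other libraries of different groups at 0.889 to 0.978. Skeletal muscle markers, all 8 in the table, summed to 9560 to 14660 FPKM in chin refractory telogen and 5369 to 5606 in dorsal early anagen, against 201.5 to 229.4 in ventral competent telogen. The first ventral catagen library carries an ear location in one label and ventral skin in its title. The 2 dorsal columns of the ear table hold the same values as those labelled dorsal competent telogen, where the study speaks both of first telogen, its other name for competent telogen, and of refractory telogen for the dorsal skin compared with the ear, and the ear skin columns carry other numbers than the sample titles. Estimated depth was 6743724 to 26013413 fragments in skin libraries and 6949101 to 29330041 in the ear table. Counts were also computed without dorsal competent telogen, alone, with chin late anagen, or with ventral and dorsal refractory telogen. Values are given where this changed a count by over 1.5 times. Chin and ventral competent telogen and ventral early anagen were not left out as whole groups. Skin differences between groups, or between changes, that use a whole group in doubt could not be recomputed without that group. For those, its libraries were only left out singly.

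**Figure D1:**
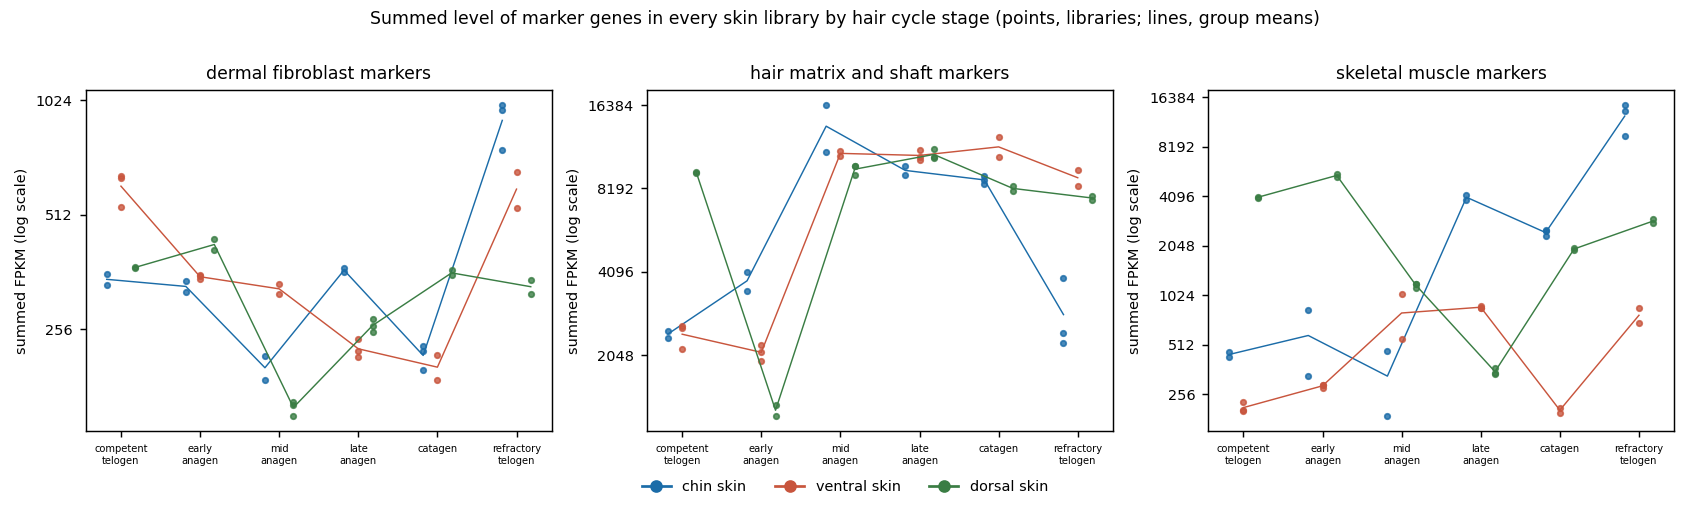
Summed FPKM (log axis) of 3 marker lists in every skin library, by hair cycle stage on the x axis and by domain in colour; points are libraries and lines join group means. Hair matrix and shaft markers in dorsal competent telogen (9294 to 9384) lay in the range of the mid anagen to catagen groups, and dermal fibroblast markers were highest in chin refractory telogen (759.7 to 993.4).

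Over the 18 groups ventral competent telogen and dorsal early anagen were the groups with most RNA for most of the genes. Ventral competent telogen had the highest mean of 8 genes, dorsal early anagen that of Col6a1 and ventral mid anagen that of Eln. Col1a1 stood at 1957, 1994 and 2192 FPKM in the 3 ventral competent telogen libraries, at 1646 and 1630.3 in dorsal early anagen and at 1309 and 1426 in ventral mid anagen. These groups overlapped neither each other nor any other group. At the lower end Col1a1 was 170.4, 153 and 149 FPKM in chin catagen, and the means of the highest and lowest groups, 2048 ± 126 (SD, n = 3) and 157 ± 11.5 (SD, n = 3), differed 13.01-fold. The order in between was less clear, since the libraries of 9 of the 17 pairs of neighbouring groups overlapped. One run of overlapping neighbours, with means from 696 down to 523 FPKM, held early anagen and refractory telogen of chin and ventral skin and chin competent telogen.

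Col1a2 had the same groups at the top, with 1332, 1374 and 1359 FPKM in ventral competent telogen and 1265 and 1251 in dorsal early anagen, and was lowest in chin catagen at 118, 116 and 113. Col3a1 reached 1515, 1523 and 1423 FPKM in ventral competent telogen and was lowest in chin mid anagen, where its libraries were apart at 244 and 142. The type V chains had far lower levels per length. Col5a1 ranged from 4.43 to 34.7 FPKM over the 43 libraries and Col5a2 from 4.78 to 31.9, each lowest on average in dorsal mid anagen. For both, 11 of 17 neighbouring pairs of groups overlapped.

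Col6a1 was highest in dorsal early anagen, at 77.2 and 66.5 FPKM, just above ventral competent telogen at 66.1, 54.1 and 50.4. It was lowest in dorsal catagen at 7.75 and 7.31. Eln differed from the collagens in that 3 ventral stages in succession were high: 48.8, 46.6 and 45.4 FPKM in competent telogen, 49.7, 44.3 and 50.95 in early anagen and 54.99 and 52.5 in mid anagen. In chin mid anagen Eln was at 4.23 and 4.0 FPKM, and the means of these 2 mid anagen groups differed 13.1-fold. Fbn1 had a smaller range, from 1.92 to 13.4 FPKM over all libraries, and Lox ranged from 1.03 to 17.02. For Lox 14 of 17 neighbouring pairs of groups overlapped, although ventral competent telogen, dorsal early anagen and ventral mid anagen lay above all others. Dcn was at 1014, 1010.1 and 1006 FPKM in ventral competent telogen, 928, 569 and 992 in chin refractory telogen and 228 and 226 in dorsal refractory telogen, its lowest group.

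**Figure D2:**
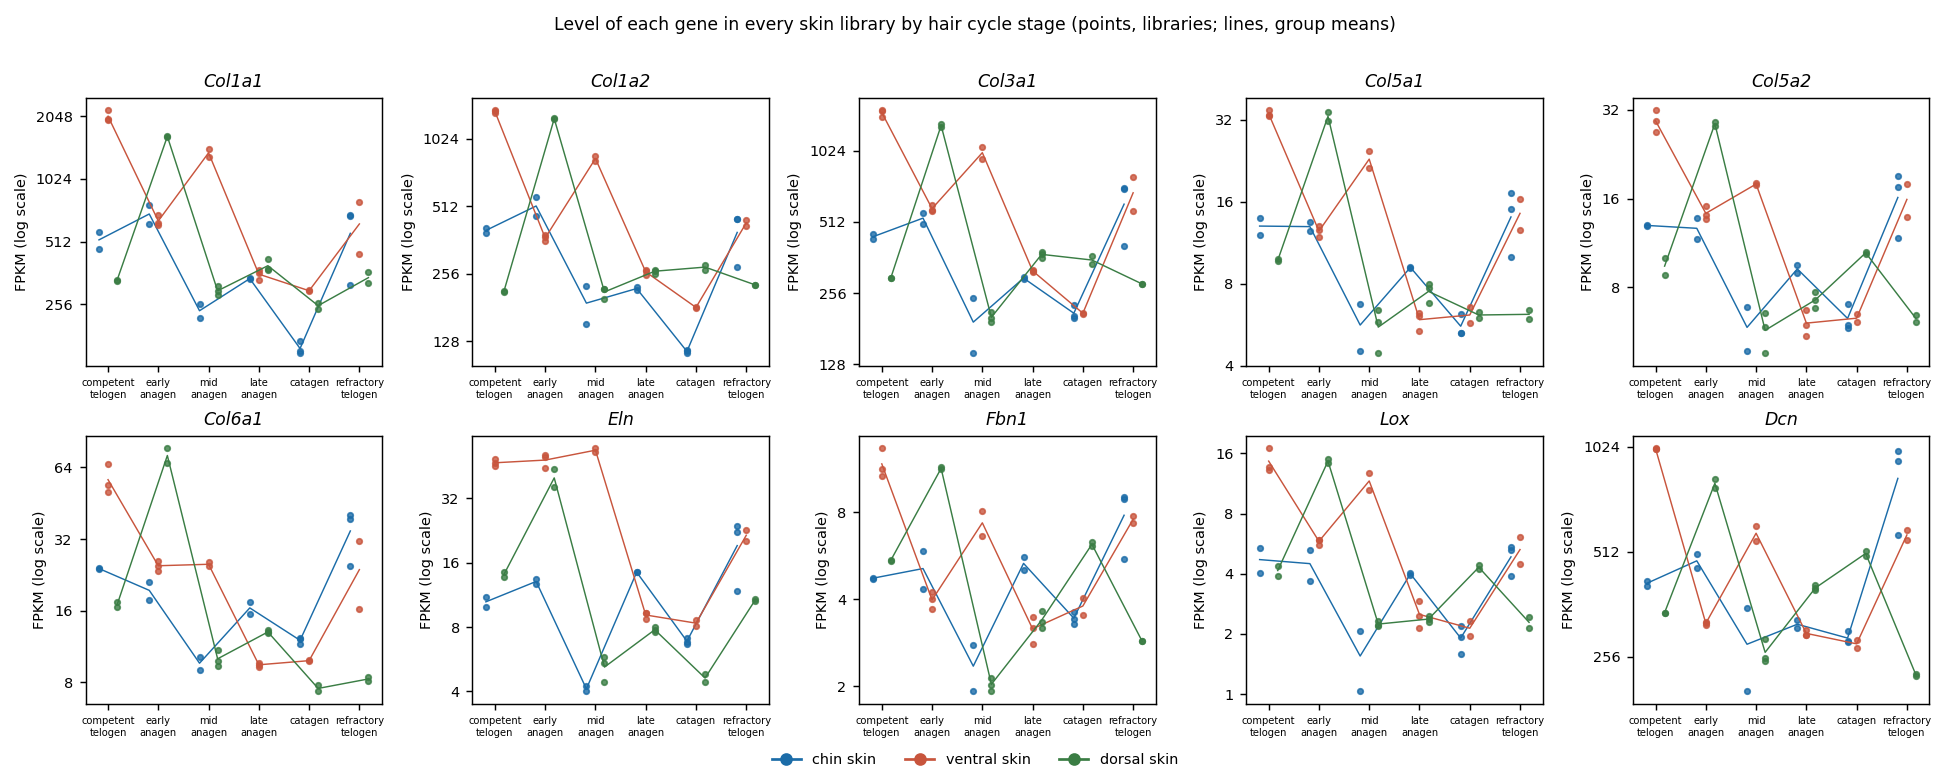
FPKM (log axis) of the 10 genes in each of the 43 skin libraries, by hair cycle stage on the x axis and by domain in colour; points are libraries and lines join group means. Most genes peak in ventral competent telogen and dorsal early anagen, with Col1a1 at 1957 to 2192 FPKM in the 3 ventral competent telogen libraries.

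The first question was whether the genes vary over the hair cycle within a domain. By limma on log2(FPKM + 1), with p-values adjusted by Benjamini-Hochberg over all 21257 genes tested in skin, all 10 genes passed the F test at an adjusted p under 0.05 over the stages of chin skin (66.2% of all genes passed), of ventral skin (70.2%) and of dorsal skin (68.5%). The shares among all genes are high, so that the counts set these genes little apart. Col1a2 had the lowest adjusted p of the 10 in each domain, 1.89e-13 in chin, 2.61e-16 in ventral and 1.81e-14 in dorsal skin, and its highest and lowest group means differed 11.7-fold.

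Between competent telogen, the first, and refractory telogen, the second, the genes moved in different ways in the 3 domains. In ventral skin all 10 fell (34.5% of all genes were called lower), at a median of -1.16 on the log2 scale against -0.22 over all genes. In chin skin 4 rose and none fell (17.8% of all genes were called higher), at a median of 0.34 against 0. In dorsal skin 6 fell and none rose (11.3% were called lower), at a median of -0.55 against 0.

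Among the fibril-forming chains, ventral Col1a1 went from 1957, 1994 and 2192 FPKM in competent telogen to 798 and 449 in refractory telogen. The groups did not overlap, although the refractory libraries were far from each other, and the difference was -1.77 on the log2 scale (SE 0.21, adjusted p = 6.81e-08). Ventral Col1a2 went from 1332, 1374 and 1359 to 443 and 419.9 FPKM (-1.65, SE 0.14, adjusted p = 8.28e-11). In chin skin the type I chains did not pass: Col1a1 was at 473 and 572 FPKM in competent and 685, 317 and 684 in refractory telogen (0.03, SE 0.21, adjusted p = 0.985). The second chin refractory library was the lowest of its group for each of the 10 genes. Dorsal Col1a1 was at 337 and 333 FPKM in competent and 323 and 366 in refractory telogen (0.04, SE 0.23, adjusted p = 0.969).

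The genes that rose in chin skin were Dcn, Eln, Fbn1 and Col6a1. Dcn went from 422 and 408 to 928, 569 and 992 FPKM, with no overlap (0.96, SE 0.16, adjusted p = 1.32e-05). Eln went from 9.97 and 11.04 to 22.3, 11.8 and 23.7 FPKM (0.76, SE 0.15, adjusted p = 0.000232), its lowest refractory library lying just above the competent ones. Fbn1, at 4.76 and 4.71 and then 8.88, 5.53 and 9.06 FPKM, was higher by 0.59 (SE 0.14, adjusted p = 0.000947) and Col6a1 by 0.47 (SE 0.17, adjusted p = 0.0286). Without the second chin refractory library 7 genes passed. The 8 dermal fibroblast markers, among them Pdgfra and Dpt, summed to 334 to 358.7 FPKM in chin competent and 759.7 to 993.4 in chin refractory telogen, and skeletal muscle markers to 431 to 462.9 and 9560 to 14660, and their part in these differences was not tested. In bulk samples fewer cells of a type and less RNA per cell cannot be told apart.

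In dorsal skin Col6a1, Fbn1, Lox, Dcn, Col5a1 and Col5a2 fell. Dorsal Col6a1 went from 17.3 and 16.5 FPKM in the libraries labelled competent telogen to 8.43 and 8.08 in refractory telogen (-0.95, SE 0.19, adjusted p = 0.000325). Fbn1 went from 5.48 and 5.45 to 2.87 and 2.86 FPKM (-0.74, SE 0.15, adjusted p = 0.000478), and Lox from 4.39 and 3.91 to 2.43 and 2.14 FPKM (-0.65, SE 0.17, adjusted p = 0.00587), with no overlap for any of the 3. For Eln, at 14.4 and 13.8 against 10.9 and 10.6 FPKM, the difference did not pass (-0.36, SE 0.17, adjusted p = 0.127). The count depended on single libraries: it was 3 without the first or the second dorsal competent library and 2 without the second dorsal refractory one. Dpt averaged 161.0 FPKM in dorsal competent and 47.72 in dorsal refractory telogen, Pdgfra 2.315 and 1.14, and the adipocyte marker Adipoq 182.6 and 25.43. Summed dermal fibroblast markers fell less, and the part of these markers was not tested.

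**Figure D3:**
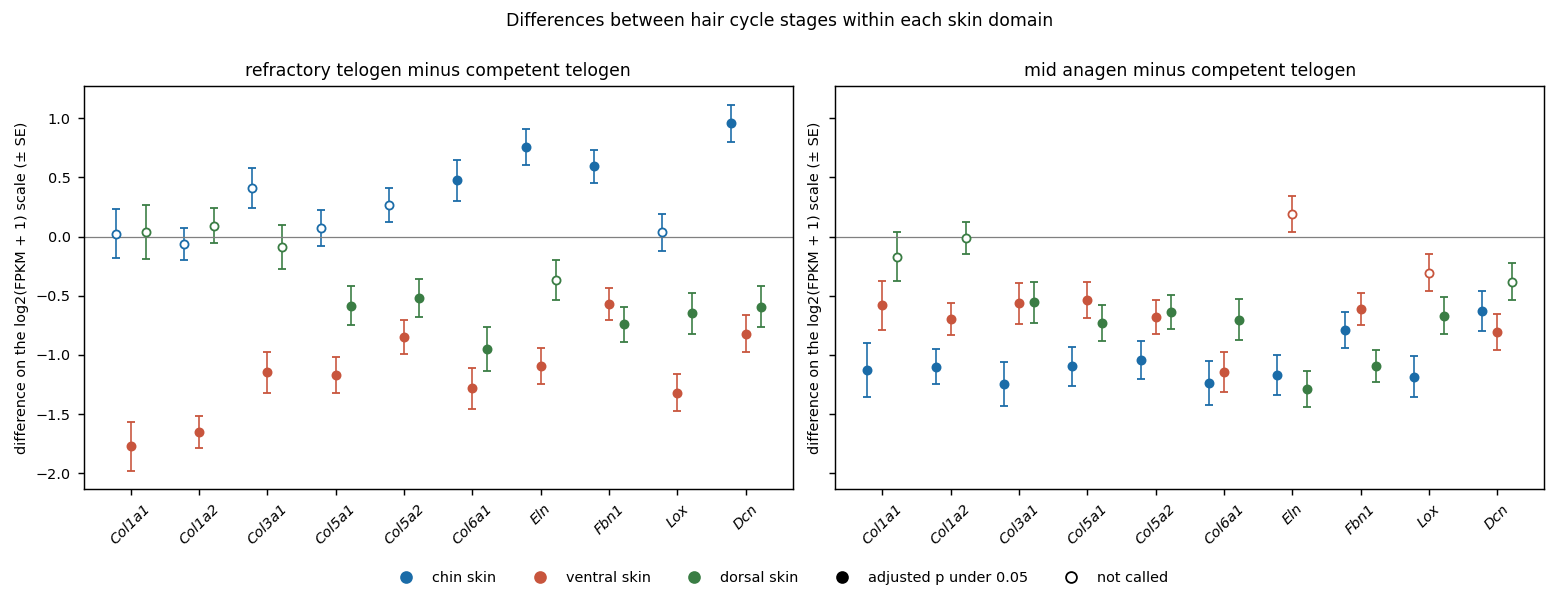
Difference on the log2(FPKM + 1) scale, with its standard error, between refractory and competent telogen (left) and between mid anagen and competent telogen (right) for the 10 genes on the x axis, by domain in colour; filled points passed an adjusted p under 0.05. In the left panel ventral points lie below 0 for all 10 genes, down to -1.77 for Col1a1, while chin points reach 0.96 for Dcn.

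From the libraries labelled competent telogen to those labelled mid anagen, the called differences were downward in every domain. Lef1 averaged 38.84, 47.49 and 32.03 FPKM in competent telogen of chin, ventral and dorsal skin, beside 37.67, 35.48 and 39.74 in mid anagen. Krt31 differed more, at 365.5, 324.2 and 1062 FPKM beside 1682, 1641 and 1701. Whether this is a step from rest to growth was therefore not settled by the markers. In chin skin all 10 genes fell (19.6% of all genes were called lower), at a median of -1.11 against -0.14 over all genes. In ventral skin 8 fell (31.7%), at a median of -0.60 against -0.24, and in dorsal skin 7 fell (7.54%), at a median of -0.65 against 0.07. The ventral count moved with the scaling: with libraries scaled by the median of ratios 1 gene was lower, Col6a1, and 1 higher, Eln. It was 5 without the second ventral mid anagen library.

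Chin Col3a1 went from 454 and 432 to 244 and 142 FPKM (-1.25, SE 0.19, adjusted p = 1.44e-05), and chin Lox from 5.39 and 4.03 to 2.07 and 1.03 FPKM (-1.18, SE 0.17, adjusted p = 7.67e-06). The second chin mid anagen library was below the first for each of the genes. Ventral Eln had a positive difference, at 54.99 and 52.5 against 48.8, 46.6 and 45.4 FPKM, which did not pass (0.19, SE 0.15, adjusted p = 0.353). In dorsal skin the type I chains did not pass either, with Col1a2 at 219.7, 219.7 and 198 against 213 and 216 FPKM (-0.01, SE 0.14, adjusted p = 1). Elastic fibre genes had the most negative dorsal differences. Dorsal Eln went from 14.4 and 13.8 to 5.77, 5.43 and 4.41 FPKM (-1.29, SE 0.15, adjusted p = 3.59e-07) and dorsal Fbn1 from 5.48 and 5.45 to 1.93, 2.14 and 2.03 FPKM (-1.09, SE 0.14, adjusted p = 8.38e-07). Dermal fibroblast markers summed to 188.2 to 217.4 FPKM in chin, 316.4 to 337.5 in ventral and 151.5 to 164.5 in dorsal mid anagen, beside 334 to 358.7, 538.2 to 648.2 and 371.3 to 373.2 in competent telogen, and their part was not tested.

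The next question was how the domains differ at 1 stage. In competent telogen all 10 genes differed among the domains (54% of all genes passed the F test). All 10 were higher in ventral than in chin skin (15.5% of all genes were called higher), at a median of 1.38 against 0.05 over all genes. Eln, at 48.8, 46.6 and 45.4 against 9.97 and 11.04 FPKM, was higher by 2.06 (SE 0.15, adjusted p = 2.62e-10). Dcn, at 1014, 1010.1 and 1006 against 422 and 408 FPKM, was higher by 1.28 (SE 0.16, adjusted p = 6.42e-07). Markers of several cell types differed with them: dermal fibroblast markers summed to 538.2 to 648.2 FPKM in ventral and 334 to 358.7 in chin skin, adipocyte markers to 1152 to 1672 and 621.9 to 651.3, macrophage markers to 52.2 to 58.93 and 20.91 to 22.97 and skeletal muscle markers to 201.5 to 229.4 and 431 to 462.9. Of these markers 5 of 8, 8 of 8 and 6 of 6 were called higher in ventral skin and 5 of 8 lower, and their part was not tested. All 10 were lower in the libraries labelled dorsal competent telogen than in ventral ones (38% of all genes were called lower), at a median of -1.67 against -0.25. Col1a2 differed most, at 213 and 216 against 1332, 1374 and 1359 FPKM (-2.65, SE 0.14, adjusted p = 3.2e-15).

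Dorsal and chin competent telogen were closer: 5 genes were lower in dorsal skin (27.5%), among them Col1a2 (-0.90, SE 0.15, adjusted p = 2.33e-05), at a median of -0.40 against -0.19. With libraries scaled by the median of ratios 1 gene was lower, Col1a2, and 2 were higher, Eln and Fbn1. With quantile normalization 4 were lower and 2 higher. The count was 1 without the first or the second dorsal library and 2 without the first or the second chin library.

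In early anagen all 10 genes differed among the domains (51.6% of all genes), and dorsal skin had the highest mean of 9. Hair matrix markers were far lower in ventral skin at this stage, with Krt35 at 97.47 FPKM against 943.9 in chin and 638.3 in dorsal skin. Differences of stage and of domain therefore cannot be told apart here. Col6a1 was at 77.2 and 66.5 FPKM in dorsal, 25.9, 23.6 and 24.6 in ventral and 17.7 and 21.2 in chin skin (adjusted p = 3.54e-09). Lox, the cross-linking enzyme, was at 14.3 and 15.02 FPKM in dorsal, 5.93, 5.6 and 5.92 in ventral and 3.7 and 5.29 in chin skin (adjusted p = 3.27e-08). Eln was the exception, since ventral skin at 49.7, 44.3 and 50.95 FPKM lay above dorsal skin at 43.7 and 36.1, with chin skin at 12.7 and 13.5 (adjusted p = 2.4e-10). Skeletal muscle markers summed to 5369 to 5606 FPKM in dorsal, 280.6 to 293.3 in ventral and 329.6 to 836.9 in chin early anagen. The dermal fibroblast marker Pdgfra averaged 4.25 FPKM in dorsal, 1.763 in ventral and 2.12 in chin skin, and Dpt 125.9, 59.33 and 78.51. The other fibroblast markers are not given here, and the part of all these markers was not tested.

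In mid anagen all 10 genes differed among the domains (38.1% of all genes) and ventral skin had the highest mean of each. Col1a1 was at 1309 and 1426 FPKM in ventral, 257 and 221 in chin and 284, 297 and 312 in dorsal skin (adjusted p = 1.01e-09). Late anagen was the stage with the fewest, as 6 genes passed (20.8% of all genes): Eln, Fbn1, Col6a1, Lox, Col5a1 and Col5a2. Eln was at 14.5 and 14.4 FPKM in chin, 8.69, 9.3 and 9.36 in ventral and 7.74, 7.56 and 8.03 in dorsal skin (adjusted p = 0.000824), with no overlap. Col1a1 did not pass, at 339 and 342 FPKM in chin, 335, 362 and 376 in ventral and 379.7, 424 and 375 in dorsal skin (adjusted p = 0.777). The count in late anagen was 3 without the first chin late anagen library and 1 without the second. Between ventral and dorsal late anagen, with the chin late anagen and dorsal competent telogen groups left out, limma called 0 genes, and 3 had an unadjusted p under 0.05.

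In catagen 9 genes differed among the domains (42.9% of all genes), all but Col5a1, which was at 5.26, 5.29 and 6.19 FPKM in chin, 6.55 and 5.72 in ventral and 6.27 and 6.0 in dorsal skin (adjusted p = 0.757). The order of the domains was not shared. Col1a1 was highest in ventral catagen at 297 and 299 FPKM, followed by dorsal skin at 244 and 261 and chin skin at 170.4, 153 and 149 (adjusted p = 0.00116). Dcn was highest in dorsal skin at 513 and 498 FPKM, against 271 and 285 in ventral and 282, 303 and 283 in chin skin (adjusted p = 9.55e-05). For Eln the dorsal libraries were the lowest, at 4.41 and 4.84 FPKM against 8.63 and 8.07 in ventral and 6.82, 7.11 and 6.7 in chin skin (adjusted p = 0.00208).

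In refractory telogen all 10 genes differed among the domains (42.2% of all genes), and dorsal skin was the low one. All 10 had lower levels in dorsal skin than in the chin (27.2% of all genes were called lower), at a median of -1.06 against -0.14, and all 10 were lower in dorsal than in ventral skin (8.1%), at a median of -1.12 against 0.01. Col6a1 was at 8.43 and 8.08 FPKM in dorsal, 40.3, 24.5 and 39.02 in chin and 31.3 and 16.3 in ventral skin. Its dorsal level was lower than that of chin (-1.91, SE 0.17, adjusted p = 7.2e-10) and of ventral skin (-1.35, SE 0.19, adjusted p = 4.63e-06). Fibrillin was likewise low in dorsal skin, with Fbn1 at 2.87 and 2.86 FPKM in dorsal, 8.88, 5.53 and 9.06 in chin and 7.79 and 7.36 in ventral skin. Dermal fibroblast markers summed to 317.3 to 345.1 FPKM in dorsal, 759.7 to 993.4 in chin and 534.5 to 661.4 in ventral refractory telogen, and adipocyte markers to 1135 to 1166, 1943 to 2175 and 3364 to 3443, and their part was not tested.

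Between chin and ventral refractory telogen 2 genes were lower in ventral skin (24.7% of all genes), Col6a1 (-0.56, SE 0.17, adjusted p = 0.0127) and Dcn (-0.50, SE 0.16, adjusted p = 0.0156). That count was 0 by limma without the first or the third chin or the second ventral refractory library (3, 4 and 2 genes at an unadjusted p under 0.05) and 1 without the first ventral one. With libraries scaled by the median of ratios 3 genes were higher in ventral skin and none lower, and with quantile normalization 2 were higher and 1 lower.

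Whether a domain changes differently from another over the cycle was tested directly. For all 10 genes domain and stage interacted, as they did for 73.3% of all genes, with adjusted p from 1.15e-15 for Col1a2 to 4.84e-11 for Col1a1. The change from competent to refractory telogen was lower in ventral than in chin skin for all 10 (27.3% of all genes were called lower), at a median of -1.57 against -0.24. The difference was widest for Eln (-1.85, SE 0.22, adjusted p = 1.6e-07). Dorsal skin had a lower change than chin skin for 7 (13.5%), the other 3 being Col1a1, Col1a2 and Col3a1. With quantile normalization 1 gene, Col1a2, was called higher beside 7 lower. Compared with ventral skin, the dorsal change was higher for 6 (25.7%), with Col1a1 at 1.81 (SE 0.31, adjusted p = 4.45e-05) and Col1a2 at 1.74 (SE 0.20, adjusted p = 1.28e-07). That last count was 3 without the second ventral refractory library, and Fbn1 was called lower beside 4 genes called higher with quantile normalization and 3 with scaling by the median of ratios. These comparisons share the groups of each domain.

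The change from competent telogen to mid anagen differed in fewer genes. It was higher in ventral than in chin skin for 2 (1.15% of all genes were called higher), Eln (1.36, SE 0.23, adjusted p = 0.000432) and Lox (0.88, SE 0.23, adjusted p = 0.0219). It was higher in dorsal than in chin skin for 3 (22.3%), Col1a1, Col3a1 and Col1a2, the last by 1.09 (SE 0.20, adjusted p = 0.00015). Between dorsal and ventral skin 2 genes passed (35.2% of all genes in either direction), Col1a2 higher (0.69, SE 0.19, adjusted p = 0.00624) and Eln lower (-1.48, SE 0.22, adjusted p = 5.07e-06).

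These counts moved with single libraries. The difference between ventral and chin skin was called for 5 genes without the first chin mid anagen library and for 1 without the second, without the first chin competent telogen library or without the second ventral mid anagen library. The difference between dorsal and chin skin was called for 6 genes without the first chin mid anagen library and for 1 without the second or without the second dorsal competent telogen library. That between dorsal and ventral skin was called for 4 without the second chin refractory telogen library. With libraries scaled by the median of ratios 1 gene was higher and 1 lower between dorsal and chin skin, and 4 were lower and none higher between dorsal and ventral skin. With quantile normalization 3 were higher and 1 lower between dorsal and chin skin, and 2 higher and 3 lower between dorsal and ventral skin. With values rescaled to TPM all 8 called were higher between dorsal and chin skin, and 3 were higher and 1 lower between dorsal and ventral skin.

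Ratios between genes, given as a description without a test, set parts of the matrix beside each other. Over the 43 skin libraries the ratio of Col1a1 to Col1a2, whose chains enter the type I trimer together, was 0.913 to 1.81. Dorsal catagen was the one group in which Col1a2 was the more abundant per length, at 267 and 281 against 244 and 261 FPKM for Col1a1. In the same libraries the ratio of Col5a1 to Col5a2 was lowest, 0.586 ± 0.02496 (SD, n = 2) against 0.981 ± 0.1601 (SD, n = 43) over all libraries, and so was that of Eln to Fbn1, 0.745 ± 0.0311 (SD, n = 2). The ratio of Col3a1 to Col1a1 was highest in dorsal catagen, 1.401 ± 0.141 (SD, n = 2), and chin catagen, 1.34 ± 0.156 (SD, n = 3), but near its low end in ventral catagen, 0.705 to 0.707. The ratio of Dcn to Col1a1 was highest in dorsal catagen, 2.004 ± 0.137 (SD, n = 2). It was lowest in ventral mid anagen, 0.424 ± 0.05402 (SD, n = 2), where Dcn was below Col1a1.

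Eln and Fbn1, the core and the scaffold of the elastic fibre, had a ratio from 0.723 to 13.8 over the skin libraries. Ventral early anagen stood apart with 12.2 ± 1.68 (SD, n = 3) and ventral mid anagen with 7.36 ± 0.803 (SD, n = 2). In ventral early anagen Fbn1 was at 4.0, 4.25 and 3.7 FPKM, against 11.3, 13.4 and 10.7 in competent telogen, while Eln was at 49.7, 44.3 and 50.95 FPKM. Lef1 averaged 5.66 FPKM in this group, against 52.75 in chin and 40.53 in dorsal early anagen. The part of the stage in the ratio was not tested.

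**Figure D4:**
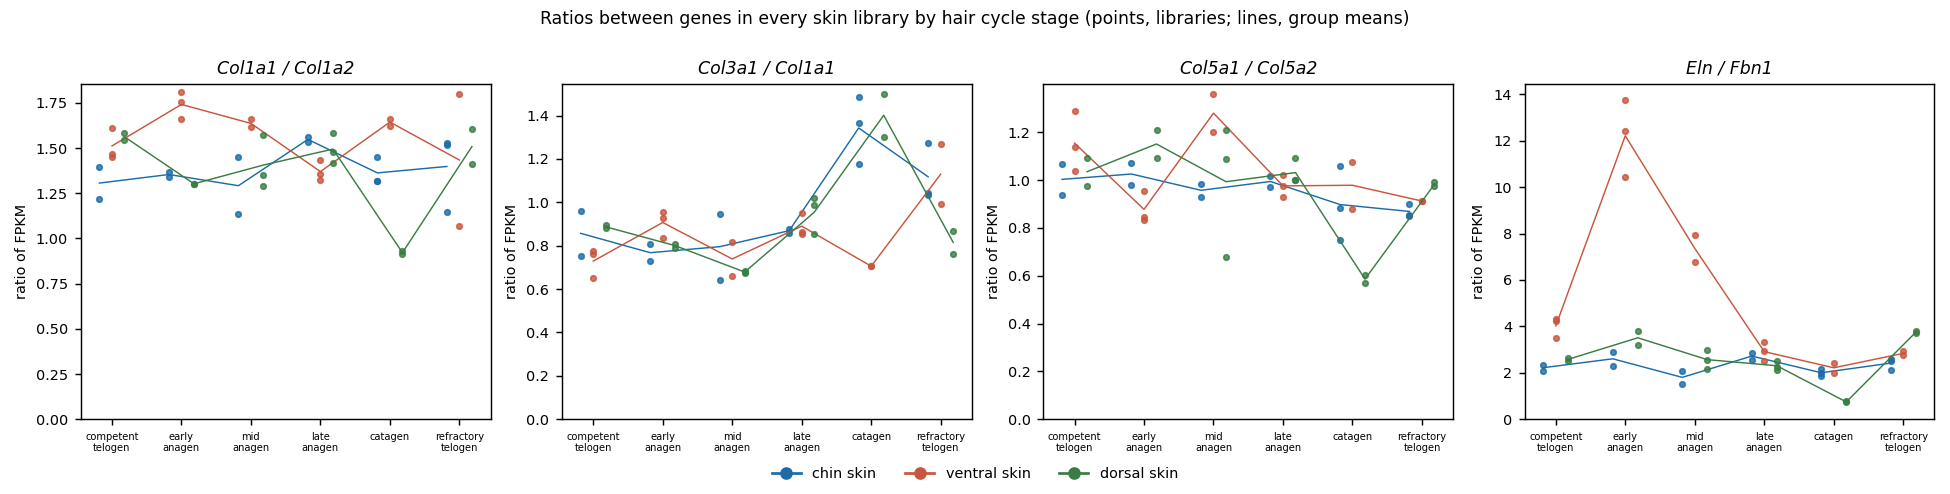
Ratio of FPKM of 4 pairs of genes in each skin library, by hair cycle stage on the x axis and by domain in colour; points are libraries and lines join group means. The ratio of Eln to Fbn1 in ventral early anagen, 12.2 on average, stands above all other groups, and dorsal catagen is lowest for Col1a1 to Col1a2, Col5a1 to Col5a2 and Eln to Fbn1.

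Other genes of the matrix were described from 8 groups of 67 listed symbols, of which 66 are in the table and 60 passed the filter on low values in skin. Between competent and refractory telogen 32 rose and 5 fell in chin skin, 5 rose and 35 fell in ventral skin and 6 rose and 16 fell in dorsal skin, at medians of 0.44, -0.45 and -0.22. Of all genes tested 17.8% rose and 18.4% fell in chin skin, 8.12% rose and 34.5% fell in ventral skin and 10.8% rose and 11.3% fell in dorsal skin, so that the dorsal count of listed genes that rose is near the share of all genes. Pcolce2, an enhancer of procollagen processing, was higher in chin refractory telogen (1.82, SE 0.21, adjusted p = 4.28e-08), as was Loxl1, a lysyl oxidase of elastic fibres (1.80, SE 0.20, adjusted p = 1.74e-08). Col11a1, a fibrillar collagen best known from cartilage, fell in chin skin, with 11.4 to 11.9 FPKM in competent and 0.72 to 1.47 in refractory telogen (-2.60, SE 0.19, adjusted p = 7.5e-12). It also fell in ventral skin, with 9.22 to 14.2 and 1.0 to 1.32 FPKM (-2.56, SE 0.19, adjusted p = 1.29e-11). In the libraries labelled dorsal competent telogen it was at 1.19 to 1.58 FPKM. Mfap4, a protein associated with microfibrils, fell in ventral skin, with 306 to 377 FPKM in competent and 81.2 to 98.6 in refractory telogen (-1.89, SE 0.23, adjusted p = 1.09e-07). In dorsal skin Ogn, a small leucine-rich proteoglycan, fell (-1.57, SE 0.17, adjusted p = 4.93e-08), as did Mfap5, another microfibril protein (-1.31, SE 0.23, adjusted p = 9.08e-05).

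The counts by group stand against the same shares of all genes, and those of the groups of 9 genes or fewer rest on few genes. By group, 6 of 6 small leucine-rich proteoglycans listed beside Dcn fell in ventral skin from competent to refractory telogen, and 5 of 6 rose in chin skin. Of 14 genes of elastic fibres and microfibrils, 9 fell and 1 rose in ventral skin, while 9 rose and 1 fell in chin skin. Of 16 genes of collagen synthesis and processing, 10 fell and 1 rose in ventral skin, and 7 rose and 2 fell in chin skin. The 3 other type VI chains tested all fell in ventral and in dorsal skin, as did Col6a1, and none of them passed in chin skin. Of 9 genes of matrix degradation and its inhibitors, 8 rose in chin skin, while 2 rose and 2 fell in ventral skin. Of 5 other fibrillar collagens 2 fell and 0 rose in ventral skin, against 1 and 1 in chin skin. Of the 3 fibril-associated collagens 1 fell and 1 rose in ventral skin, and of the 4 other lysyl oxidases 2 fell and 0 rose.

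From competent telogen to mid anagen 32 of the 60 fell and 2 rose in chin skin, 38 fell and none rose in ventral skin, and 28 fell and 1 rose in dorsal skin. Of all genes 19.6% fell and 5.83% rose in chin skin, 31.7% and 5.13% in ventral skin and 7.54% and 13.5% in dorsal skin. Col14a1, a collagen on the surface of fibrils, fell in chin skin (-1.44, SE 0.13, adjusted p = 2.56e-09), and Ctsk, a protease that cuts collagen, fell in dorsal skin (-1.58, SE 0.14, adjusted p = 1.37e-09). Ltbp1, which binds latent TGF-beta to the matrix, was the gene that rose in dorsal skin (0.90, SE 0.21, adjusted p = 0.00209). In competent telogen 40 listed genes were higher and 1 lower in ventral than in chin skin (15.5% and 7.44% of all genes), and Mmp3, a matrix protease, was at 40.7 to 54.2 against 5.13 to 7.11 FPKM (2.75, SE 0.15, adjusted p = 3.9e-13). In refractory telogen 43 had lower and 4 higher levels in dorsal skin than in the chin (27.2% and 7.61% of all genes).

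The 10 genes varied together over the 18 group means. On the log2 scale the 45 pairwise correlations ran from 0.615, between Eln and Dcn, to 0.98, between Col1a1 and Col1a2. These are descriptions over group means of whole skin. The genes outside the 10 whose pattern was most like the mean of theirs were Gpx7 (r = 0.98), Pdgfrl (0.978), Rcn3 (0.973), Adamts2 and Fam114a1 (both 0.964), over 18 groups. Adamts2 encodes a protease that removes the amino-terminal propeptide of procollagens and went from 14.7 FPKM in ventral competent telogen to 2.36 in chin catagen by group means. Pdgfrl went from 48.9 to 4.21 FPKM between the same groups.

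Since the genes varied together, their promoters were compared for 3 short motifs. RefSeq promoters of GRCm38.p6, 250 bases before to 50 after the RefSeq start, were at hand for 5 of the 10 genes. Shown are those of 3 fibril-forming chains, 5′ to 3′ on the plus strand, which is the strand of each gene. The motifs are in capitals: the CCAAT box (CCAAT or, on the other strand, ATTGG), the TATA box (TATAAA or TTTATA) and the GC box (GGGCGG or CCGCCC). They are matches of letters at any position in the window, and their use as promoter elements was not tested. The Col1a2 window is chr6:4505368-4505667, that of Col3a1 chr1:45311288-45311587 and that of Col5a1 chr2:27886175-27886474.
Col1a2: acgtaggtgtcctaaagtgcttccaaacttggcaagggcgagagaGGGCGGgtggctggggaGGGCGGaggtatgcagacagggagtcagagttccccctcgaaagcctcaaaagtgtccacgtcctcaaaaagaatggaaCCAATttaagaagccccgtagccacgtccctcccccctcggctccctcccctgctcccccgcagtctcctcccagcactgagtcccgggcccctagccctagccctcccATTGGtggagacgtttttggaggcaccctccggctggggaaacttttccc
Col3a1: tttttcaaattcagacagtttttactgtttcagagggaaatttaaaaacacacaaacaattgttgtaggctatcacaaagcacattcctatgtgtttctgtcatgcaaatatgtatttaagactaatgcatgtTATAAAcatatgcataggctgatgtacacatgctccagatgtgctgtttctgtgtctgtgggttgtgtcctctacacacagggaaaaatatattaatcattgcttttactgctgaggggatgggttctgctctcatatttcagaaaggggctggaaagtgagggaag
Col5a1: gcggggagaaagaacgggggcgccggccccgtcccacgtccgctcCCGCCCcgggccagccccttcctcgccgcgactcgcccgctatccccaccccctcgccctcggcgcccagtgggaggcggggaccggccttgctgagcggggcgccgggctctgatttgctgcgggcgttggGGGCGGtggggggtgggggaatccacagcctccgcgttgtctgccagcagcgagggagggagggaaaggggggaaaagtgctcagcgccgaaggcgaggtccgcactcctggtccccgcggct
The Col1a2 window held a CCAAT box on each strand, with the first letter at -109 and at 1 from the start, and GC boxes at -205 and -188. That of Col3a1 held a TATA box at -117 and neither of the other motifs, and that of Col5a1 held GC boxes at -205 and -73. The windows also differed in base composition, with 61.0% G and C for Col1a2, 37.7% for Col3a1 and 75.0% for Col5a1, where the median of 32851 promoters was 52.7%. The window of Fbn1 held 1 GC box and that of Col6a1 none of the motifs. For Col1a2 and Fbn1 the RefSeq start lies inside the GENCODE bounds given above, and positions are counted from the RefSeq start. Over all promoters 37.4% held a CCAAT box, 13.6% a TATA box and 35.7% a GC box, on either strand. No motif was common to the 3 windows.

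In the ear table the question was how the matrix genes differ between ear skin, the cartilage/muscle complex of the ear and dorsal skin. Ear skin had more of all 10 genes than the dorsal libraries and the most type I and III collagen RNA, while the cartilage/muscle complex had more Eln, Dcn and Fbn1 RNA than either skin. Of 11 chondrocyte markers 10 are in the table, and they summed to 1770 to 2151 FPKM in the cartilage/muscle complex, 32.19 to 33.37 in ear skin and 101.1 to 103.2 in dorsal skin. Between ear and dorsal skin Sox9 was the only one of them called lower in ear skin (-1.74, SE 0.10). Comp (0.66, SE 0.14) and Col9a1 (0.47, SE 0.08) were called higher in ear skin, and the others did not pass. Skeletal muscle markers summed to 16830 to 19650, 935.2 to 996.8 and 4008 to 4068 FPKM, and dermal fibroblast markers to 6421 to 7687, 1355 to 1583 and 371.3 to 373.2. The fibroblast markers were divided between the cartilage/muscle complex and ear skin. S100a4 (2.81), Prrx1 (2.38), Pdgfrb (1.14) and Pdgfra (0.61) were higher in the complex. Thy1 (-2.42), Dpt (-1.63), Cd34 (-1.56) and Twist2 (-1.15) were lower there. Hair matrix and shaft markers summed to 71.24 to 73.72 FPKM in ear skin and 9294 to 9384 in the dorsal libraries, and the part of these tissues in the differences was not tested.

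Between ear and dorsal skin all 10 genes were higher in ear skin (44.7% of the 19299 genes tested were called higher), at a median of 2.52 against 0.33 over all genes. Col1a1 was at 3156 and 3511 FPKM in ear skin against 337 and 333 (3.31, SE 0.09, adjusted p = 1.81e-06), and Col6a1 at 157 and 128 against 17.3 and 16.5 (3.00, SE 0.13, adjusted p = 1.07e-05). The elastic fibre genes differed least. Eln was at 24.1 and 25.5 against 14.4 and 13.8 FPKM (0.77, SE 0.06, adjusted p = 9.12e-05) and Fbn1 at 10.3 and 10.5 against 5.48 and 5.45 (0.82, SE 0.07, adjusted p = 0.000134). With the 2 dorsal refractory telogen libraries as dorsal skin all 10 were again higher in ear skin.

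Between the cartilage/muscle complex and ear skin 5 genes were lower (38.5% of all genes) and 3 higher (28%). The lower ones were Col1a1, Col3a1, Col1a2, Col5a1 and Col5a2, the fibril-forming chains. Col1a1 was at 126, 143 and 123 FPKM against 3156 and 3511 (-4.66, SE 0.09, adjusted p = 1.23e-07), and Col3a1 at 141, 149 and 147 against 2645 and 2654 (-4.18, SE 0.05, adjusted p = 2.05e-08). Eln, Fbn1 and Dcn were higher. Eln was at 536, 543 and 524 FPKM against 24.1 and 25.5 (4.37, SE 0.05, adjusted p = 2.43e-08), and Dcn at 3555, 3637 and 3629.7 against 1788 and 1834 (0.99, SE 0.05, adjusted p = 6.13e-06). Lox overlapped and did not pass, at 23.5, 21.2 and 24.9 against 25.8 and 22.7 FPKM (-0.06, SE 0.10, adjusted p = 0.607), and Col6a1 did not pass either (0.24, SE 0.12, adjusted p = 0.115). With quantile normalization 4 genes were lower and 4 higher.

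Against dorsal skin the cartilage/muscle complex had 8 genes higher (42.8% of all genes) and 2 lower (28.3%). The lower ones were Col1a1 (-1.35, SE 0.09, adjusted p = 2.11e-05) and Col3a1 (-1.03, SE 0.05, adjusted p = 5.29e-06), and Eln had the largest difference (5.15, SE 0.05, adjusted p = 7.92e-09). Col1a2 was slightly higher, at 260.0, 284 and 253 against 213 and 216 FPKM (0.31, SE 0.06, adjusted p = 0.00494), but its sign turned with libraries scaled by the median of ratios (-0.095). The ratio of Col1a1 to Col1a2 was 0.492 ± 0.0113 (SD, n = 3) in the cartilage/muscle complex against 1.36 ± 0.132 (SD, n = 2) in ear skin, and the ratio of Eln to Fbn1 was 23.1 ± 0.419 (SD, n = 3) against 2.39 ± 0.0672 (SD, n = 2).

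Of the listed matrix genes, 63 were tested in the ear table. Against ear skin 34 were higher and 21 lower in the cartilage/muscle complex, where 28% of all genes were higher and 38.5% lower. Col2a1, the collagen of cartilage fibrils, was at 66.3 to 77.1 against 0.21 to 0.22 FPKM (5.88, SE 0.09, adjusted p = 5.64e-08), and Col27a1, another collagen of cartilage, at 223 to 225 against 3.71 to 4.33 FPKM (5.49, SE 0.07, adjusted p = 4.32e-08). The proteases Mmp3 (-3.94, SE 0.11, adjusted p = 6.57e-07) and Mmp9 (-2.16, SE 0.19, adjusted p = 0.000111) were lower. In ear skin 51 were higher and 3 lower than in dorsal skin (44.7% and 14.6% of all genes). Aspn (3.38, SE 0.14, adjusted p = 9.84e-06) and Fmod (3.24, SE 0.10, adjusted p = 2.24e-06), small leucine-rich proteoglycans, were higher, and Plod2, a lysyl hydroxylase of collagen, was lower (-2.14, SE 0.10, adjusted p = 1.6e-05).

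**Figure D5:**
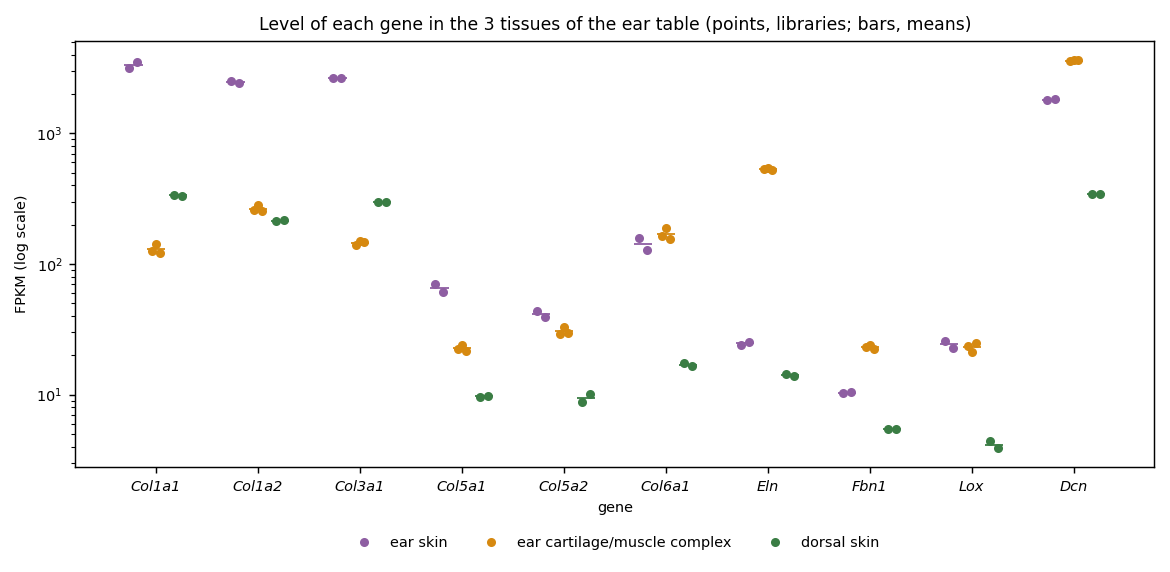
FPKM (log axis) of the 10 genes on the x axis in 2 libraries of ear skin, 3 of the ear cartilage/muscle complex and 2 of dorsal skin; points are libraries and bars are means. Eln is highest in the cartilage/muscle complex (524 to 543 FPKM), and Col1a1, Col1a2 and Col3a1 in ear skin, Col1a1 at 3156 to 3511.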

How the data were processed

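Whole skin RNA was sequenced after full-length cDNA amplification (SMART-seq2). As the study's methods and the submitters' processing notes give it, the authors aligned paired-end reads to mm10 with GENCODE vM8, quantified them with RSEM 1.2.25 and corrected for batch effects, with the batches not named. The deposited values are FPKM per gene, in 1 table of 43 skin libraries and another of 7 ear table libraries, and the effect of the batch correction on them is unknown. Depth was estimated from steps between low values, which fell within 0.08 fragments of whole numbers for 64.3 to 75.1% of them, too few for a count test.

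Here log2(FPKM + 1) was fitted, for genes that reached 0.5 FPKM in 2 or more libraries, by limma 3.58.1 with a variance trend in R 4.3.3, 1 fit for the 18 skin groups and another for the ear table, since the tables may have been normalized separately. P-values were adjusted by Benjamini-Hochberg over all genes tested, with 0.05 as the threshold, and the model was tested on simulated data. Differences on this scale understate the change of low genes. Figures were drawn with matplotlib 3.10.9 in Python 3.11.15. No pair of replicates agreed within sampling noise (chi-square per degree of freedom 2.75 to 159.9). The highest value was that of the ventral refractory telogen libraries, whose median absolute difference was 0.538 on the log2 scale. Chin mid anagen came next, at 68.1 and 0.398.

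The members and lists were chosen with earlier results of these data known. Named genes were the 10 members, up to 2 listed matrix genes with the largest called difference in each direction of a comparison, and the 5 other genes most like the mean of the members. Alternatives were another pseudocount, low-value minimums, scalings, no variance trend, a replicate block, each library left out, and some groups of doubted labels left out.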

Additional observations from a re-analysis of the deposited data

Results flagged for a closer look

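The difference between domains was itself tested, and it passed for several of the 10 genes. Domain and stage interacted for 10 genes and for 73.3% of all genes. The change from competent to refractory telogen differed for 10 genes between ventral and chin skin (34.5% of all genes in either direction), for 7 between dorsal and chin skin (27%) and for 6 between dorsal and ventral skin (33.1%). The change from competent telogen to mid anagen differed for 2 genes between ventral and chin skin (5.08%), for 3 between dorsal and chin skin (29.2%) and for 2 between dorsal and ventral skin (35.2%). The last count is below the share of all genes and the one before it near that share. Groups of 2 or 3 libraries are too small for a test of single outlying libraries.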

How the results depend on the processing

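The 210 differences of the 10 genes were recomputed under 12 settings besides leaving out single libraries, each setting giving values only for the comparisons whose libraries it kept or concerned. Of the values so computed 1837 kept their call, 50 were no longer called, 42 were newly called and 1 called value took the other sign, Col1a2 between the cartilage/muscle complex and dorsal skin under scaling by the median of ratios (-0.095). A further 85 uncalled values changed sign, single libraries left out included. The count of genes called between dorsal and chin competent telogen, 5, was 2 with no filter on low values and 3 with scaling by the median of ratios. The count for the change to mid anagen between dorsal and chin skin, 3, was 8 with values rescaled to TPM, that between dorsal and ventral skin, 2, was 4 with TPM, 4 with the median of ratios and 5 with quantile normalization, and that between ventral and chin skin, 2, was 4 with the median of ratios. The ventral count from competent telogen to mid anagen, 8, was 2 with the median of ratios. The count among domains in late anagen, 6, was 0 by limma without the groups labelled dorsal competent telogen and chin late anagen (3 at an unadjusted p under 0.05). In that setting only ventral and dorsal skin were compared, with fewer libraries. The cause was not tested for any of these counts. The change to mid anagen between dorsal and ventral skin had 1 gene higher and 2 lower with a pseudocount of 0.1 or a minimum of 5 FPKM. Scaling by the median of ratios moved the median over all genes most for that same comparison, from 0.32 to 0 on the log2 scale, and that of the 10 genes from 0.02 to -0.49.

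With each library left out in turn, the counts ran from 1 to 7 among domains in late anagen, from 1 to 6 for the change to mid anagen between dorsal and chin skin, from 2 to 4 between dorsal and ventral skin and from 1 to 5 between ventral and chin skin. They ran from 3 to 7 for the change to refractory telogen between dorsal and ventral skin, from 1 to 7 between dorsal and chin competent telogen, from 5 to 8 from ventral competent telogen to mid anagen, from 3 to 7 from competent to refractory telogen in chin and from 2 to 7 in dorsal skin, and from 0 to 2 between ventral and chin refractory telogen. A group left with 1 library was assumed to vary like the others.

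Samples share replicate numbers, but over 153 pairs of groups the correlations of same-numbered deviations ran from -0.17 to 0.16, and 4 were over 0.1. The deposited values thus show no pairing by number. This cannot exclude a pairing of the samples, since the batch correction could have removed its trace. With a replicate block no count moved by over 1.5 times, and the count between dorsal and chin competent telogen was 6. The ear table was not fitted with a block, since its ear skin columns are numbered 2 and 3 and the sample titles 1 and 2, so that these columns could not be tied to single samples. The 4 settings that leave out doubted groups or take dorsal refractory telogen as dorsal skin were chosen after seeing the data. With groups of 2 or 3 libraries, and depth estimated at 6743724 fragments at the lowest, a difference that did not pass is not shown to be absent.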

Other observations

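Markers of other cells of the skin also differed between competent and refractory telogen. In chin skin, where 17.8% of all genes rose and 18.4% fell, 8 of 8 skeletal muscle, 8 of 8 adipocyte, 6 of 6 macrophage, 4 of 5 endothelial and 7 of 8 dermal fibroblast markers rose. Of 5 smooth muscle markers 2 rose and 1 fell, and of 6 markers of interfollicular epidermis 1 fell. In ventral skin, where 8.12% of all genes rose and 34.5% fell, 5 of 8 adipocyte markers rose and 3 of 8 dermal fibroblast markers fell, while 2 of 6 macrophage markers fell and 1 rose, so that the shares of fibroblast and macrophage markers that fell are near that of all genes. In dorsal skin, where 11.3% of all genes fell, 6 of 6 macrophage markers fell.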
